A study of Mus musculus with 18 samples.

Results

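The axon guidance ligands and receptors on the arrays were 60 genes: 13 Eph receptors, 8 ephrins, 20 semaphorins, 9 plexins, 3 netrins, 3 Slits and 4 Robos. A probe set counted when its platform annotation gave exactly 1 gene symbol and that symbol belonged to one of these families. Where a gene had several such probe sets, the one with the highest 18-array mean was used. The 60 genes were part of 22180 genes so named, and all 60 were among the 19016 genes that passed the filter on low values. Of them, 57 lay above the 25th percentile of the array on all 18 arrays. Sema3a did so on 17 arrays, Robo3 on 15 and Epha6 on 6. By role, 34 of the genes encode ligands and 26 encode receptors.

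Total RNA from cultured mouse neurospheres, which are floating clusters of neural stem and progenitor cells, was hybridised to 1 array per sample. The cells are labelled female. There were 6 groups of 3 arrays. Cultures of wild type cells, of Pcdh19 knockout cells and of a mosaic of both were each taken at day 0, as neurospheres, and at day 4 of differentiation. Pcdh19 encodes protocadherin 19, an X-linked cell adhesion protein, and a mosaic culture was a mix of wild type with knockout cells. The labels name neither the proportions of that mix nor the strain, the age of the mice or the form of the knockout allele. The submitters describe the replicates as technical, so every p-value below measures only the spread between these samples. Calls rest on limma's moderated test with Benjamini-Hochberg adjustment over the 19016 genes, at an adjusted p under 0.05, and differences are on the log2 scale of the deposited values.

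Guidance molecules steer growing axons and migrating cells by attraction or repulsion. Ephrins are membrane-bound ligands of the Eph receptor tyrosine kinases, and signals pass into both of the touching cells. Semaphorins act mainly through plexins, and most of the secreted class 3 members need a neuropilin as co-receptor. Netrins act through Dcc and Unc5 receptors, and Slits are secreted repellents that bind Robo receptors. Several of these families also act on oligodendrocyte precursors, neural progenitors and blood vessels.

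Pcdh19 itself separated the wild type from the knockout arrays. Its log2 signal was 6.85, 6.83 and 6.66 in the day 0 wild type replicates and 6.90, 6.98 and 6.81 at day 4. Knockout arrays gave Pcdh19 values of 5.39, 5.46 and 5.68 at day 0 and of 5.70, 5.53 and 5.86 at day 4. Mosaic arrays gave Pcdh19 values of 6.03, 6.31 and 5.65 at day 0 and of 6.54, 7.09 and 5.52 at day 4. All 6 knockout arrays lay below all 6 wild type arrays, and the mosaic arrays ran from 5.52 to 7.09. Mosaic replicate 3 lay within the knockout range on both days, and no mosaic array lay within the wild type range of 6.66 to 6.98. Averaged over days, the log2 difference of Pcdh19 between knockout and wild type cultures was -1.23 ± 0.19 (SE), which did not pass the test over all genes (adjusted p = 0.0642).

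The change of state was visible in marker genes. Of the neural stem cell markers, Sox2 stood at or above the 98.7th percentile of every array, and Fabp7 at or above the 99.9th. Vim stood at or above the 99.4th and Hes5 between the 91.6th and the 99.2nd. Nes lay between the 75.0th and the 93.4th, and Pax6 between the 77.5th and the 87.3rd. Prom1 lay between the 73.7th and the 87.3rd, and Hes1 between the 70.7th and the 94.4th. Olig2 and Slc1a3, markers of other cell types, stood at or above the 99.4th and the 99.3rd. These levels alone therefore do not single out the labelled cell type. With the genotypes averaged, all 9 oligodendrocyte markers were higher at day 4 (median log2 difference 3.39), as were 7 of 8 oligodendrocyte progenitor markers, 8 of 9 neuronal markers and 6 of 8 astrocyte markers. The 2 astrocyte markers that were lower were Gfap (-1.33) and Aldh1l1 (-0.57). Lower at day 4 were 6 of 8 neural stem cell markers (median -0.83) and all 7 cell cycle genes (median -2.48), while the stem cell marker Prom1 was higher (0.59). Of all tested genes, 45.6% were called in this averaged comparison, 24.9% higher and 20.7% lower. The mean log2 signal of the oligodendrocyte list was 5.61 to 6.11 on day 0 arrays and 8.86 to 9.52 on day 4 arrays. The neuronal list stood at 6.79 to 7.07 and then at 7.70 to 8.42, and the cell cycle list at 8.47 to 8.84 and then at 5.79 to 7.10. Microglial and endothelial lists stayed near the array medians of 4.85 to 4.99, at 4.53 to 4.95 and at 4.54 to 4.92 over all 18 arrays, with 1 of 6 and 0 of 6 markers called. Of 6 tested pericyte and fibroblast markers, Pdgfrb was higher (2.15) and Cspg4, also an oligodendrocyte progenitor marker, lower (-0.32). These shifts accompanied every change over time reported below, and their part in those changes was not tested. In cultures of several cell types, more cells of a type and more RNA per cell cannot be told apart.

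Over 4 days of differentiation more guidance genes were called higher than lower, and the largest rises were those of the semaphorins Sema4d and Sema3e. Called in no genotype were 27 of 60 genes (45%), against 56.2% of all genes. Wild type cultures showed 17 guidance genes higher and 6 lower, 23 of 60 in all, against 33.6% of all tested genes called in that comparison (17.2% higher and 16.3% lower). Knockout cultures showed 18 higher and 6 lower, against a background of 27.4% (15% higher and 12.4% lower). In mosaic cultures 18 were higher and 8 lower, against 26.2% (14.4% higher and 11.9% lower). With the genotypes averaged, 22 were higher and 13 lower, 35 of 60, against 45.6% of all genes (24.9% higher and 20.7% lower). The called members were thus 38.3% of the set in wild type cultures, 40% in knockout cultures and 43.3% in mosaic ones. Quantile normalization changed the wild type split to 21 higher and 4 lower. Setting all arrays to a common median changed the knockout split to 18 higher and 3 lower and the mosaic split to 20 higher and 5 lower. Of all called genes, the share that was higher moved too. With quantile normalization it went from 51.4% to 61.6% in wild type cultures. With a common median it went from 54.6% to 59.3% in knockout and from 54.7% to 62.7% in mosaic cultures. In wild type cultures a common median lowered it from 51.4% to 44.7%, with 16 members higher and 6 lower.

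Changes of at least 2-fold were mostly increases. At least 2-fold higher were 6 members in wild type cultures, 7 in knockout cultures and 9 in mosaic ones, against 1.38%, 1.69% and 1.99% of all genes. Among the mosaic 9, Plxnb3 stood near that limit with a log2 difference of 1.06, and its mosaic day 4 arrays were 8.53, 8.70 and 9.20. Sema3a was the only member that was called and at least 2-fold lower, and was so in each genotype, against (in the same order) 2.79%, 2.47% and 2.35% of all genes. The median log2 difference of the 60 genes was 0.17, 0.11 and 0.11 in the 3 genotypes, beside 0.087, 0.023 and 0.016 over all genes. Days 0 and 4 did not overlap for 35 members in wild type cultures, 35 in knockout cultures and 28 in mosaic ones, against 48.9%, 39.2% and 38.1% of all genes.

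**Figure D1:**
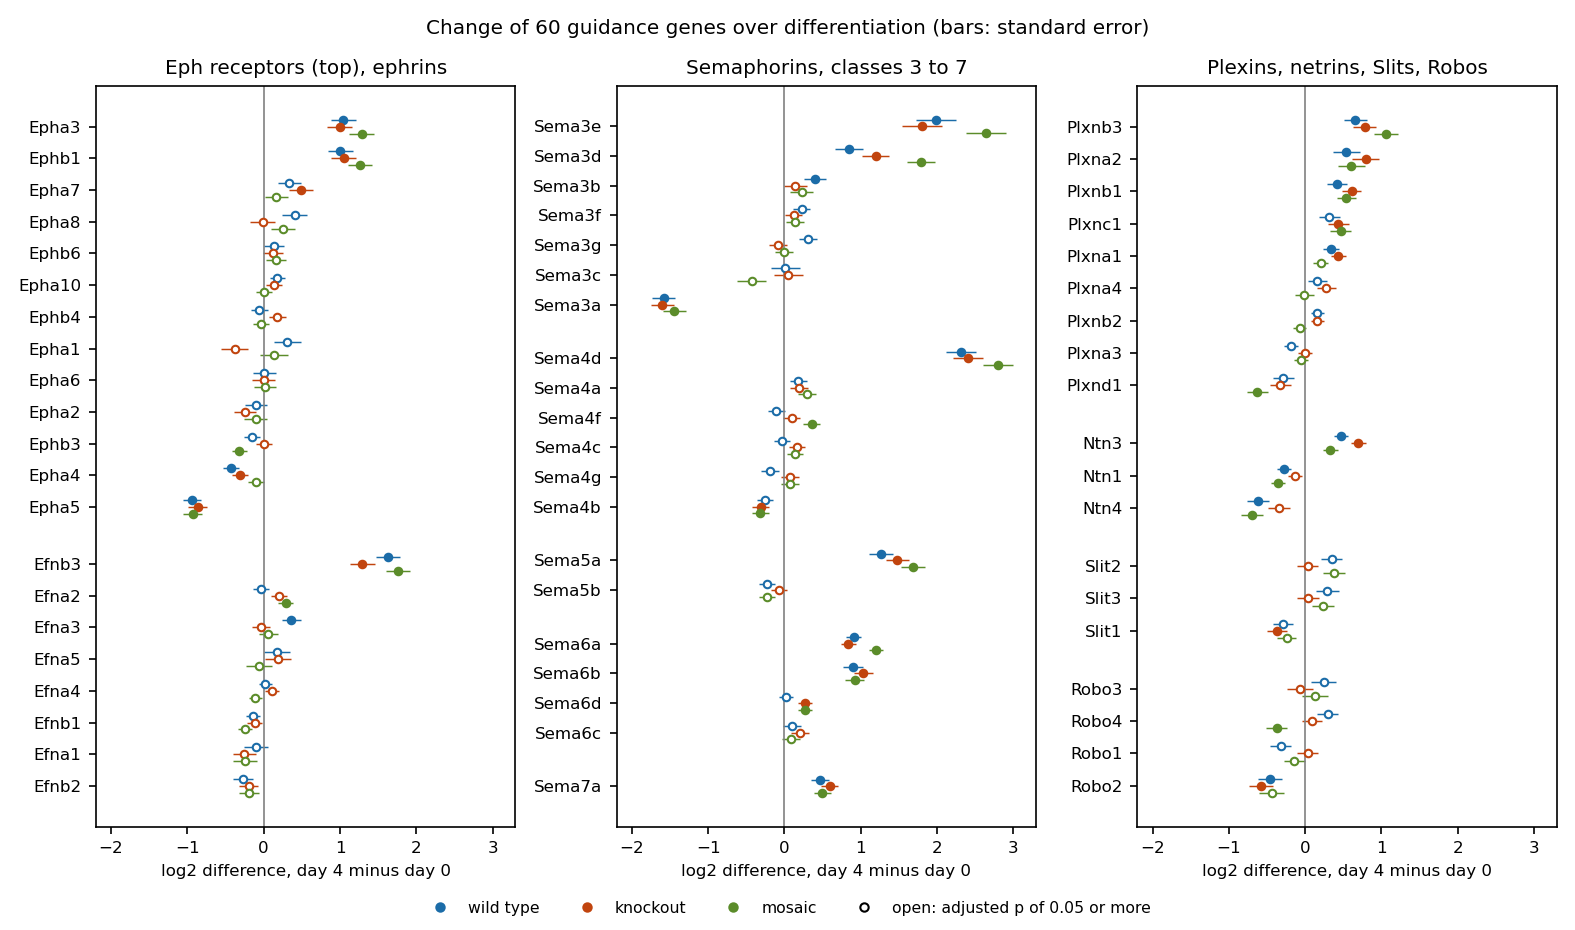
Log2 difference between day 4 and day 0 for each of the 60 guidance genes in wild type, knockout and mosaic cultures, by gene family. Points are fitted differences with their standard errors from 3 arrays per group, filled where the adjusted p was under 0.05 and open otherwise. Sema4d and Sema3e lie furthest to the right and Sema3a furthest to the left in each genotype.

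Each genotype's difference rests on its own 6 arrays, but all 18 arrays share 1 estimate of the spread, so the calls are not independent. Called higher in all 3 genotypes were 14 members, namely Sema4d, Sema3e, Sema5a, Sema3d, Sema6a, Sema6b, Sema7a, Efnb3, Ntn3, Epha3, Ephb1, Plxnb3, Plxna2 and Plxnb1. Sema3a and Epha5 were called lower in all 3. Among all genes, 8.86% were called higher and 8.93% lower in all 3 genotypes. A further 8 members were called in 2 genotypes, 9 in 1 genotype and 27 in none, and no member was called in opposite directions. Among all genes these shares were 7.86%, 18.1% and 56.2%, with 0.105% called in opposite directions. A call in 1 genotype and not in another does not show that the genotypes differ, and no such difference passed its own test.

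Among the ligands, Sema4d changed most. It encodes a membrane-bound class 4 semaphorin that binds the plexins Plxnb1 and Plxnb2 and is known in the brain from oligodendrocytes. Wild type arrays gave Sema4d log2 signals of 4.95, 5.45 and 4.73 at day 0 and of 7.64, 7.30 and 7.14 at day 4. Knockout arrays gave Sema4d signals of 4.66, 4.48 and 4.96 and then of 6.98, 7.04 and 7.30. Mosaic arrays gave Sema4d signals of 4.68, 4.70 and 4.89 and then of 7.27, 7.43 and 7.95. Every day 4 array lay above every day 0 array, by more than 1 log2 unit. The log2 difference was 2.31 ± 0.20 (SE) in wild type, 2.41 ± 0.20 in knockout and 2.79 ± 0.20 in the mosaic cultures. Averaged over genotypes it was 2.51 ± 0.11, a 5.68-fold rise (adjusted p = 2.16e-11).

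The other class 4 genes moved little. Sema4a was higher by 0.22 and Sema4b lower (log2 difference -0.29) with the genotypes averaged, and Sema4f was called in mosaic cultures only (0.36, adjusted p = 0.024). Sema4c and Sema4g had differences of 0.09 and -0.01 and were not called in any genotype.

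Class 3 held both the second largest rise and the largest fall of the set. Sema3e encodes a secreted semaphorin that binds Plxnd1 directly, without a neuropilin. Wild type arrays gave Sema3e signals of 4.14, 4.09 and 4.31 at day 0 and of 6.59, 6.01 and 5.91 at day 4. Knockout arrays gave Sema3e signals of 4.50, 4.73 and 4.58 and then of 6.41, 6.51 and 6.29. Mosaic arrays gave Sema3e signals of 3.90, 3.90 and 5.12 and then of 6.79, 6.67 and 7.38. The days did not overlap in any genotype, although mosaic replicate 3 at day 0 lay more than 1 log2 unit above the other 2 of its group. Sema3e rose by 1.99 ± 0.26 in wild type, 1.80 ± 0.26 in knockout and 2.64 ± 0.26 in the mosaic cultures, and by 2.14 ± 0.15 averaged, which is 4.42-fold (adjusted p = 4.52e-09). Without that mosaic array the mosaic difference was 3.05.

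Sema3d, another secreted class 3 gene, showed the widest spread between genotypes in its rise. Its wild type signals were 5.75, 5.60 and 5.58 at day 0 and 6.86, 6.23 and 6.39 at day 4. Knockout arrays gave Sema3d signals of 5.34, 5.19 and 5.58 and then of 6.47, 6.66 and 6.55. Mosaic arrays gave Sema3d signals of 5.25, 5.64 and 5.50 and then of 7.02, 7.01 and 7.71. All day 4 values lay above all day 0 values, and the mosaic day 4 arrays were the 3 highest of the 18. The difference was 0.85 ± 0.18 in wild type, 1.19 ± 0.18 in knockout and 1.79 ± 0.18 in the mosaic cultures, and 1.28 ± 0.11 averaged (adjusted p = 2.78e-08).

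Sema3a went the other way. It encodes the classical secreted repellent that collapses growth cones through Nrp1 and class A plexins. Wild type arrays gave Sema3a signals of 5.29, 5.82 and 5.93 at day 0 and of 4.10, 4.21 and 3.99 at day 4. Knockout arrays gave Sema3a signals of 5.40, 5.34 and 5.64 and then of 3.94, 4.05 and 3.58. Mosaic arrays gave Sema3a signals of 5.70, 5.46 and 5.50 and then of 4.24, 4.08 and 4.02. All 9 day 4 arrays lay below all 9 day 0 arrays. The day 4 values also lay below the array medians of 4.85 to 4.99, and whether they stood above background is unknown. The log2 difference was -1.58 ± 0.15 in wild type, -1.60 ± 0.15 in knockout and -1.44 ± 0.15 in the mosaic cultures, and -1.54 ± 0.09 averaged, which is 2.91-fold lower (adjusted p = 3.3e-10). Of the remaining class 3 genes, Sema3b was called higher in wild type cultures only (0.40, adjusted p = 0.0442) and with the genotypes averaged (0.26). Sema3c, Sema3f and Sema3g had averaged differences of -0.12, 0.16 and 0.07 and were not called.

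The 3 class 3 genes that moved most lie in a row on mouse chromosome 5. In RefSeq's gene order for assembly GRCm38.p6, 0 protein-coding genes lie between Sema3d and Sema3a and 3 between Sema3a and Sema3e. The gene in the middle fell while those on either side rose. Because of these opposite changes, the 250 bases before the start of each gene are shown, 5′ to 3′ on the plus strand, from RefSeq on GRCm38.p6. The windows are chr5:12382916-12383165 for Sema3d, chr5:13396534-13396783 for Sema3a and chr5:14025026-14025275 for Sema3e. Capitals mark matches, on either strand, to ACAAAG or ACAATG, the core letters bound by SOX factors.
Sema3d: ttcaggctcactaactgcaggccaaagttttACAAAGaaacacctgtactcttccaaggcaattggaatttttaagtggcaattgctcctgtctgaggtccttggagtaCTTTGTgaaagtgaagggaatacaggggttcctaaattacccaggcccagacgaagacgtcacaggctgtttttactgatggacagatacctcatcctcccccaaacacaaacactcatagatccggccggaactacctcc
Sema3a: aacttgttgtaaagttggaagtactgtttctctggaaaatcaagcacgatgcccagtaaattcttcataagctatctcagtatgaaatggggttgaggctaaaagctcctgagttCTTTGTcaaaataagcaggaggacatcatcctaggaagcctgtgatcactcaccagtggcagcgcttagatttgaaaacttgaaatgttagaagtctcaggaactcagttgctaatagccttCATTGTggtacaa
Sema3e: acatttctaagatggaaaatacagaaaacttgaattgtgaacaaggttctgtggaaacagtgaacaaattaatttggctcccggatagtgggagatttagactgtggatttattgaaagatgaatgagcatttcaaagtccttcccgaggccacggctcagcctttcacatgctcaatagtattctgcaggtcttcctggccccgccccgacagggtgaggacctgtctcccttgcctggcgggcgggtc
The Sema3d window held 2 matches to ACAAAG, beginning 219 and 141 bases before the start. The Sema3a window held 1 match to ACAAAG, 135 bases before the start, and 1 to ACAATG, 13 bases before it. No match to these letters was found in the Sema3e window. Matches to the AP-1 motif TGANTCA and to TATAAA were also searched on both strands, and none of the 3 windows held one. The GC share of the windows was 46.8%, 40.8% and 48.0%. In all 32851 promoter windows of this length in the RefSeq table, ACAAAG was found in 16.5%, ACAATG in 10.7%, TGANTCA in 6.75% and TATAAA in 12.4%. The table held 68 windows for 52 of the 60 guidance genes, and these had the motifs in 10.3%, 10.3%, 4.41% and 2.94%. Their median GC share was 64.0%, beside 52.4% over all windows. A match describes the letters in a window and does not show that a factor binds there.

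With the genotypes averaged, class 5 had 1 of 2 genes higher and 1 lower, class 6 had 3 of 4 higher (2 of 4 in wild type cultures), and the single class 7 gene was higher. Sema5a, a transmembrane semaphorin with thrombospondin repeats, had wild type signals of 7.48, 7.29 and 7.11 at day 0 and of 8.46, 8.59 and 8.63 at day 4. Knockout arrays gave Sema5a signals of 7.14, 7.11 and 7.15 and then of 8.47, 8.74 and 8.63. Mosaic arrays gave Sema5a signals of 7.28, 7.04 and 7.20 and then of 8.55, 8.69 and 9.33. The days were apart in each genotype, and mosaic replicate 3 at day 4 was the highest of all. The rise was 1.27 ± 0.15, 1.48 ± 0.15 and 1.68 ± 0.15 in wild type, knockout and mosaic cultures and 1.48 ± 0.09 averaged (adjusted p = 5.96e-10). Its class member Sema5b was lower by the averaged test alone, with a log2 difference of -0.18 (adjusted p = 0.0248).

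Sema6a encodes a transmembrane semaphorin that binds Plxna2 and Plxna4. Its wild type signals were 10.05, 9.98 and 9.78 at day 0 and 10.95, 10.87 and 10.72 at day 4. Knockout arrays gave Sema6a signals of 9.97, 9.84 and 9.95 and then of 10.86, 10.62 and 10.80. Mosaic arrays gave Sema6a signals of 9.92, 9.76 and 9.78 and then of 11.09, 10.96 and 11.03. The mosaic day 4 arrays were the 3 highest of the 18. Sema6a rose by 0.98 ± 0.06 with the genotypes averaged (adjusted p = 2.59e-10).

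Sema6b, of the same class, had wild type signals of 6.02, 5.79 and 5.88 at day 0 and of 6.77, 6.87 and 6.74 at day 4. Knockout arrays gave Sema6b signals of 5.75, 5.72 and 6.03 and then of 6.81, 6.99 and 6.80. Mosaic arrays gave Sema6b signals of 5.71, 5.62 and 6.05 and then of 6.44, 6.83 and 6.86. The days were apart in each genotype, with mosaic replicate 1 at day 4 the lowest of its day. Its averaged rise was 0.95 ± 0.08 (adjusted p = 1.71e-08). Sema6d was called higher in knockout and mosaic cultures (0.27 in each) and not in wild type (0.02), and Sema6c was not called (0.13 averaged). Sema7a, the membrane-anchored semaphorin that binds Plxnc1 and integrin beta-1, rose by 0.47, 0.59 and 0.49 in the 3 genotypes. Over all classes, 10 of 20 semaphorins were called higher and 3 lower with the genotypes averaged, where 24.9% of all genes were called higher and 20.7% lower.

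**Figure D2:**
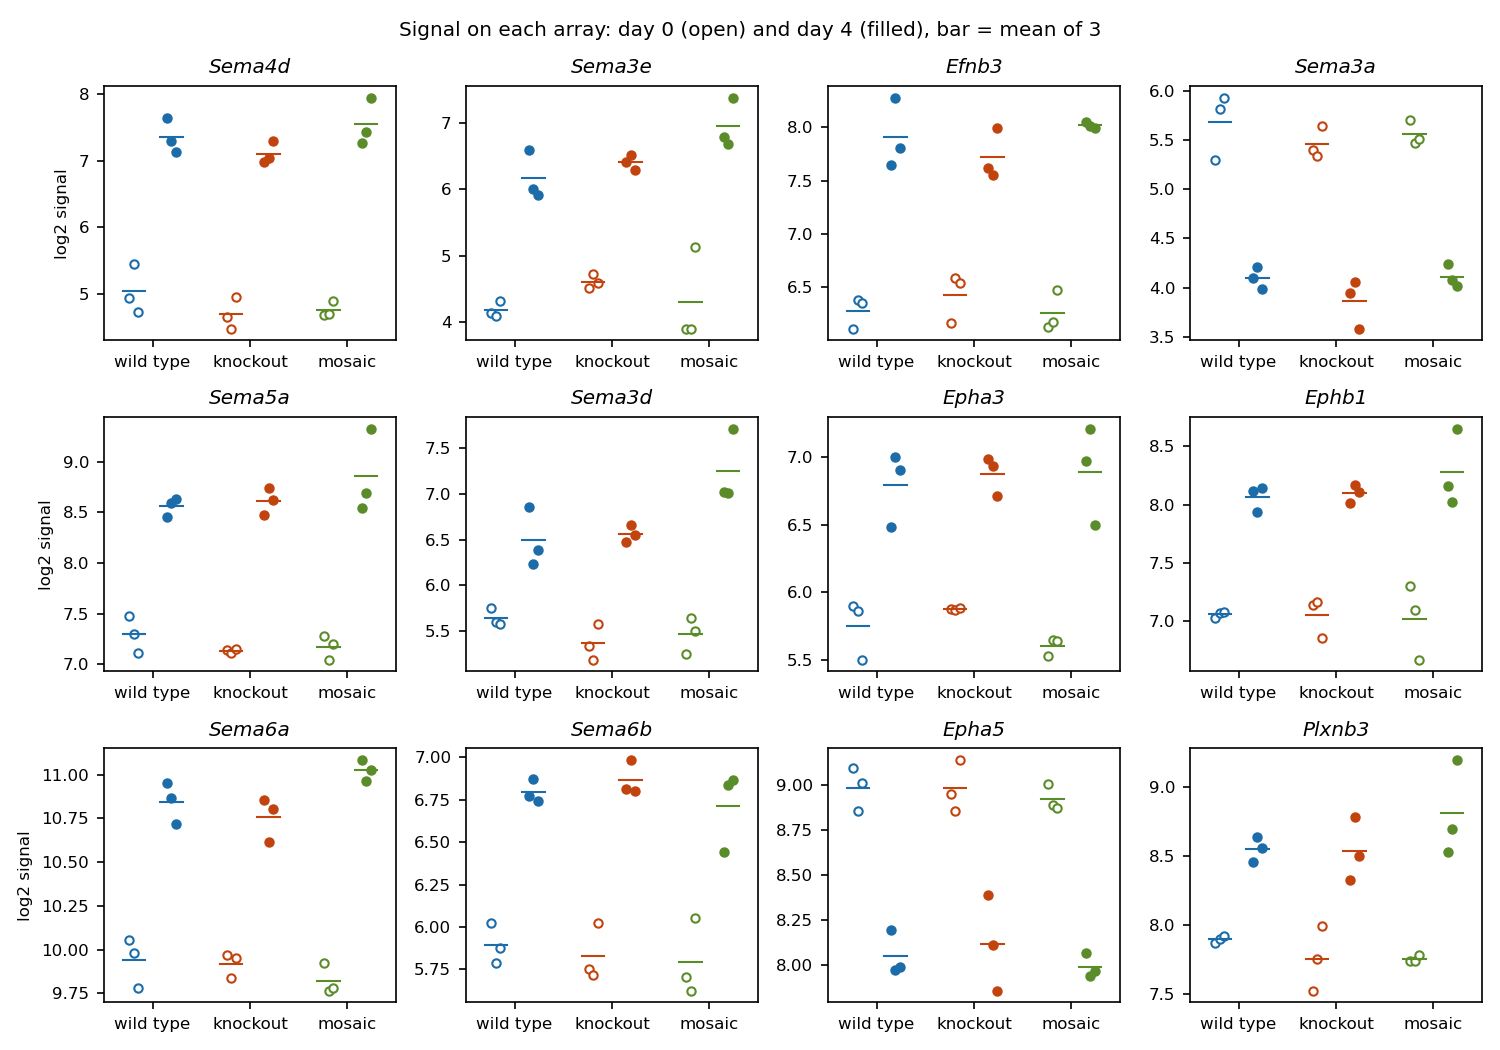
Log2 signal of the 12 guidance genes with the largest averaged change, on each of the 18 arrays, by genotype. Open points are day 0 arrays, filled points day 4 arrays, and bars the means of 3 arrays, with a separate vertical scale for each gene. In each panel and genotype the 3 day 4 arrays lie on one side of the 3 day 0 arrays.

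Of the 8 ephrins, Efnb3 alone changed by more than 2-fold. It is a transmembrane B-class ephrin known as a midline barrier for corticospinal axons and from myelinating oligodendrocytes. Efnb3 had wild type signals of 6.11, 6.38 and 6.35 at day 0 and of 7.65, 8.28 and 7.81 at day 4. Knockout arrays gave Efnb3 signals of 6.17, 6.58 and 6.53 and then of 7.62, 7.56 and 7.99. Mosaic arrays gave Efnb3 signals of 6.12, 6.18 and 6.47 and then of 8.05, 8.01 and 7.99. Day 4 lay above day 0 throughout. The log2 difference was 1.63 ± 0.16 in wild type, 1.29 ± 0.16 in knockout and 1.76 ± 0.16 in the mosaic cultures, and 1.56 ± 0.09 averaged, which is 2.95-fold (adjusted p = 5.17e-10). The other B-class ephrins were lower by the averaged test, Efnb1 at -0.17 and Efnb2 at -0.22, and in no single genotype. Efna3 was called only in wild type cultures (0.36, adjusted p = 0.0294), and Efna2 in mosaic cultures (0.29, adjusted p = 0.049) and in the average (0.15). Efna1, Efna4 and Efna5 were not called in any comparison between days.

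Among netrins and Slits, changes were small. Ntn3 rose in each genotype, by 0.47, 0.70 and 0.33. Ntn1, the founding netrin, fell in wild type (-0.27, adjusted p = 0.0327) and mosaic cultures (-0.36, adjusted p = 0.00893), and its knockout difference was -0.13. Ntn4, a netrin related to laminin beta chains, fell in wild type (-0.62) and mosaic cultures (-0.69), with -0.34 in knockout cultures (adjusted p = 0.093). Slit1 was lower in the average (-0.30) and in knockout cultures (-0.37, adjusted p = 0.0399), where the arrays of the 2 days overlapped. Slit2 was higher in the average alone (0.25, adjusted p = 0.0159), and Slit3 was not called (0.19).

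Eph receptors held 3 members higher and 3 lower of 13 with the genotypes averaged, close to the 24.9% and 20.7% of all genes. Epha3 encodes a receptor of A-class ephrins. Epha3 had wild type signals of 5.90, 5.87 and 5.50 at day 0 and of 6.48, 7.01 and 6.91 at day 4. Knockout arrays gave Epha3 signals of 5.88, 5.87 and 5.89 and then of 6.98, 6.93 and 6.71. Mosaic arrays gave Epha3 signals of 5.53, 5.65 and 5.64 and then of 6.97, 7.21 and 6.50. The days did not overlap, and the lowest day 4 values came from wild type replicate 1 and mosaic replicate 3. Epha3 rose by 1.04 ± 0.16, 0.999 ± 0.16 and 1.29 ± 0.16 in the 3 genotypes and by 1.11 ± 0.09 averaged (adjusted p = 4.09e-08).

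Ephb1, a receptor of B-class ephrins known from axon crossing at the optic chiasm, rose by a like amount. Its wild type signals were 7.02, 7.07 and 7.08 at day 0 and 8.11, 7.94 and 8.14 at day 4. Knockout arrays gave Ephb1 signals of 7.14, 7.17 and 6.85 and then of 8.02, 8.17 and 8.11. Mosaic arrays gave Ephb1 signals of 7.30, 7.09 and 6.67 and then of 8.16, 8.02 and 8.65. Mosaic replicate 3 was the lowest of all at day 0 and the highest of all at day 4. Ephb1 rose by 1.10 ± 0.09 averaged (adjusted p = 2.98e-08). A second, dimmer Ephb1 probe set rose by 0.49, so the size of the change depends on the probe set.

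Epha5, which binds A-class ephrins and is known from topographic mapping of axons, fell. Epha5 had wild type signals of 9.09, 8.85 and 9.01 at day 0 and of 8.19, 7.97 and 7.99 at day 4. Knockout arrays gave Epha5 signals of 8.95, 8.86 and 9.14 and then of 8.39, 8.11 and 7.85. Mosaic arrays gave Epha5 signals of 9.003, 8.89 and 8.87 and then of 8.06, 7.94 and 7.96. Day 4 lay below day 0 on every array. The log2 difference was -0.94 ± 0.12, -0.87 ± 0.12 and -0.93 ± 0.12, and -0.91 ± 0.07 averaged, which is 1.88-fold lower (adjusted p = 1e-08). Epha4 fell in wild type (-0.43) and knockout cultures (-0.31, adjusted p = 0.04), with -0.10 in mosaic cultures. Epha7 was higher in knockout cultures (0.49) and in the average (0.33), and Ephb3 lower in mosaic cultures (-0.32) and in the average (-0.15). The remaining 7 Eph receptors, Epha1, Epha2, Epha6, Epha8, Epha10, Ephb4 and Ephb6, were not called between days. Epha6 had signals of 3.21 to 3.79 on the 18 arrays and an averaged difference of 0.01 ± 0.08, at a level below the 25th percentile on most arrays.

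Plexins, the semaphorin receptors, rose in 5 of 9 cases with the genotypes averaged, and 1 fell, beside 24.9% higher and 20.7% lower among all genes. Plxnb3 encodes a class B plexin that binds Sema5a and is known in the brain from oligodendrocytes. Wild type arrays gave Plxnb3 signals of 7.87, 7.90 and 7.92 at day 0 and of 8.45, 8.64 and 8.56 at day 4. Knockout arrays gave Plxnb3 signals of 7.52, 7.75 and 7.99 and then of 8.32, 8.79 and 8.50. Mosaic arrays gave Plxnb3 signals of 7.74, 7.74 and 7.78 and then of 8.53, 8.70 and 9.20. The days were apart in each genotype, and mosaic replicate 3 at day 4 was again the highest. Plxnb3 rose by 0.66 ± 0.15, 0.78 ± 0.15 and 1.06 ± 0.15 in the 3 genotypes and by 0.83 ± 0.09 averaged (adjusted p = 5.78e-07).

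Plxna2 rose by 0.64 averaged, Plxnb1 by 0.52, Plxnc1 by 0.41 and Plxna1 by 0.32. In mosaic cultures the Plxna2 arrays of the 2 days overlapped although the difference was called (0.60, adjusted p = 0.017), and in knockout cultures this was so for Plxnc1 (0.44, adjusted p = 0.0217). Plxna1 and Plxnb1 also have a second, dimmer probe set, and these had averaged differences of 0.11 and 0.31. Plxnd1, the Sema3e receptor, was lower in the average (-0.41) and in mosaic cultures (-0.63, adjusted p = 0.0025). Its differences in wild type and knockout cultures were -0.29 and -0.33 (adjusted p = 0.121 and 0.0942). Plxna3, Plxna4 and Plxnb2 were not called.

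Of the Robos, Robo2 fell in wild type (-0.46, adjusted p = 0.0371) and knockout cultures (-0.58, adjusted p = 0.0123), with -0.44 in mosaic cultures (adjusted p = 0.0548). Robo1 and Robo3 were not called. Robo4, known mainly from blood vessels, was called lower in mosaic cultures alone (-0.37, adjusted p = 0.0486), where the arrays of the 2 days overlapped. Its averaged difference was below 0.01 in size, and the endothelial markers stood near the array median.

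Ligands and their known receptors were set side by side as differences with the genotypes averaged. Sema4d (2.51) and its receptor Plxnb1 (0.52) both rose, as did Sema5a (1.48) and Plxnb3 (0.83), Sema6a (0.98) and Plxna2 (0.64), Sema7a (0.52) and Plxnc1 (0.41), and Efnb3 (1.56) and Ephb1 (1.10). Sema3e and Plxnd1 moved in opposite directions (2.14 and -0.41). Slit1 and Robo2 both fell (-0.30 and -0.49). Several other known pairs had no shared call. Plxnb2 (0.08), which also binds Sema4d, and Plxna4 (0.14), which also binds Sema6a, were not called. Ephb3 (-0.15), a receptor of B-class ephrins, was lower while Efnb3 rose, and the Eph receptor Epha4 (-0.28) was lower too. Slit2 (0.25) was higher while Robo1 (-0.14) was not called and Robo2 fell. Sema3a (-1.54) fell, as did Nrp1. Of the class A plexins, Plxna1 (0.32) and Plxna2 (0.64) rose while Plxna3 (-0.08) was not called. These are changes of each gene on its own probe set and give no ratio of ligand to receptor.

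Some calls lay near the threshold, and leaving out 1 of the 18 arrays moved their adjusted p above 0.05. The direction stayed the same in each such fit, and the difference itself did not always shrink. In wild type cultures 16 of the 23 calls held whichever array was left out. The other 7 genes lost their call 32 times over these fits, 19 times with a smaller difference, 8 times with a larger one, and 5 times with the difference unchanged because the array belonged to another genotype. Leaving out replicate 1 or 3 at day 0, or replicate 1 at day 4, ended the calls of Efna3, Plxna1, Plxna2, Robo2 and Sema3b, and replicate 3 at day 0 also that of Plxnb1. Replicate 2 at day 0 ended those of Ntn1, Plxnb1, Robo2 and Sema3b, replicate 2 at day 4 those of Ntn1, Plxna2 and Plxnb1, and replicate 3 at day 4 those of Efna3, Ntn1, Plxna2 and Robo2. The Sema3b call was also lost without knockout replicate 3 or mosaic replicate 1 or 3 at day 0, or knockout replicate 2 or 3 at day 4, with its difference still 0.40 (adjusted p = 0.0506 to 0.052). Where their calls were lost, the differences were 0.31 to 0.39 for Efna3, 0.27 to 0.32 for Plxna1, 0.48 to 0.55 for Plxna2 and 0.34 to 0.39 for Plxnb1. They were -0.28 to -0.20 for Ntn1, -0.49 to -0.33 for Robo2 and 0.23 to 0.45 for Sema3b, which had the highest adjusted p of these (0.236).

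In knockout cultures 17 of the 24 calls held throughout. The other 7 genes lost theirs 33 times, 21 times with a smaller difference, 5 times with a larger and 7 times with the same one. Without replicate 1 at day 4 the calls of Epha4, Epha7, Plxnc1, Sema4b, Sema6d and Slit1 were lost, and without replicate 2 those of Epha4, Plxnc1, Sema4b and Slit1. Replicate 3 at day 4 ended those of Epha4, Robo2, Sema6d and Slit1. At day 0, replicate 1 ended those of Epha4, Epha7, Sema4b and Slit1, replicate 2 those of Sema4b, Sema6d and Slit1, and replicate 3 those of Epha4, Epha7, Plxnc1, Robo2 and Sema6d. Sema4b was also lost, at an unchanged -0.31, without wild type replicate 3 of either day, any of the 3 mosaic arrays at day 0, or mosaic replicate 1 or 2 at day 4. Where their calls were lost, the differences were -0.33 to -0.21 for Epha4, 0.34 to 0.51 for Epha7, 0.29 to 0.42 for Plxnc1 and -0.48 to -0.45 for Robo2. They were -0.31 to -0.23 for Sema4b, 0.24 to 0.27 for Sema6d and -0.41 to -0.21 for Slit1.

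In mosaic cultures 17 of the 26 calls held throughout. Sema4b, Efna2, Sema4f, Sema6d, Plxnc1, Ephb3, Ntn3, Plxna2 and Robo4 lost theirs 61 times, 28 times with a smaller difference, 8 times with a larger and 25 times with the same one. At day 0, mosaic replicates 1, 2 and 3 ended 3, 7 and 8 of these calls, and at day 4 they ended 5, 7 and 6. Robo4 lost its call without any single one of the 12 wild type and knockout arrays, Efna2 without any of 9 of them, and Sema4b without 4. Where their calls were lost, the differences were 0.20 to 0.29 for Efna2, 0.25 to 0.31 for Ntn3, 0.40 to 0.55 for Plxna2, 0.41 to 0.44 for Plxnc1, 0.34 to 0.36 for Sema4f and 0.24 to 0.28 for Sema6d. They were -0.30 to -0.25 for Ephb3, -0.37 to -0.23 for Robo4 and -0.35 to -0.27 for Sema4b.

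With the genotypes averaged, 32 of 35 calls held throughout, and Efna2, Ephb3 and Sema5b lost theirs without at least 1 array, in 28 cases of which 22 had a smaller and 6 a larger difference. Efna2 did so without any of 14 arrays (0.12 to 0.16), Ephb3 without any of 11 (-0.15 to -0.13), and Sema5b without wild type replicate 2 at day 0, wild type replicate 1 at day 4 or mosaic replicate 3 at day 4 (-0.16 to -0.14).

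Some calls also ended under another setting. In wild type cultures quantile normalization ended those of Ntn1 and Robo2, and a common array median or no filter that of Sema3b. In knockout cultures a common array median or no filter ended those of Epha4, Sema4b and Slit1, of which quantile normalization also ended Sema4b and Slit1, and averaging both probe sets ended that of Plxna1. In mosaic cultures Robo4 lost its call with no filter, with a variance trend, and under both other scalings. There, quantile normalization or no filter ended the call of Efna2, a common array median those of Ephb3 and Sema4b, no filter that of Sema4b and a variance trend that of Sema4f. With the genotypes averaged, quantile normalization ended the calls of Efnb1 and Ephb3, a common array median that of Ephb3, and no filter those of Efna2 and Ephb3. A fit on the compared groups alone, with fewer arrays, ended 2 calls in wild type, 6 in knockout and 7 in the mosaic cultures.

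A test against a minimum change of 1.5-fold was passed by fewer members. In wild type cultures 5 passed (Sema4d, Sema3e, Sema5a, Efnb3 and Sema3a), against 3.57% of all genes. Knockout cultures added Sema6b, for 6 members against 3.58%. In mosaic cultures 9 passed, which were those 5 with Sema3d, Sema6a, Epha3 and Ephb1, against 3.75%. With the genotypes averaged, 11 passed, against 5.58%, and these were the 12 members with array values above except Plxnb3.

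Other genes of the guidance pathways, from lists kept apart from the 60, moved in both directions. Of 21 tested receptors and co-receptors, 10 were higher and 7 lower with the genotypes averaged, when 24.9% and 20.7% of all genes were. Unc5c, a repulsive netrin receptor, rose by 1.56 ± 0.06, Unc5d by 0.76 ± 0.06, Dscam by 0.71 ± 0.05 and L1cam by 0.49 ± 0.09. The neuropilins fell, Nrp2 by 0.83 and Nrp1 by 0.56 on the log2 scale, as did the integrins Itga1 (-1.06) and Itgb1 (-0.57). Of 18 other ligands and modulators, 7 were higher and 8 lower, against the same shares of all genes. Tnr, which encodes tenascin-R, rose by 1.20, the protease gene Bace1 by 1.15, Flrt1 by 1.01 and Rgmb by 0.38, while Draxin (-1.42), Ntng1 (-1.23), Flrt3 (-0.49) and Adam10 (-0.44) fell.

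Of 48 intracellular effectors, 29 were higher and 9 lower with the genotypes averaged, against 24.9% and 20.7% of all genes. In wild type cultures 16 were higher and 9 lower, against 17.2% and 16.3% of all genes. The effectors' median log2 difference there was 0.092, beside 0.087 for all genes. The collapsin response mediators, which act downstream of Sema3a, included Dpysl4 (0.94), Crmp1 (0.92) and Dpysl5 (0.83), and Limk1, the kinase that inactivates cofilin, rose by 0.72. Vav3 (-1.42), Mical1 (-0.72), Rras (-0.63) and Srgap2 (-0.45) fell. The averaged median log2 difference of the effectors was 0.25, beside 0.048 for all genes and 0.11 for the 60 guidance genes.

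Between genotypes, no guidance gene passed the test. This held at day 0, at day 4 and averaged over days, for knockout against wild type, mosaic against wild type and mosaic against knockout. In the main fit limma called 0 genes of any kind in these 9 comparisons. Under other settings a few genes outside the set were called. For knockout against wild type averaged over days they numbered 3 with quantile normalization and 2 with a common array median. They numbered 1 with those groups fitted alone. Which genes these were is not given here. At an unadjusted p under 0.05, the members numbered 1, 3 and 4 at day 0 (background 3.61%, 4.3% and 4.24% of all genes). At day 4 they numbered 6, 7 and 11 (background 12.7%, 15.9% and 6.07%). Averaged over days they numbered 6, 6 and 8 (background 6.06%, 7.37% and 5.95%). The mosaic against wild type comparison shares its wild type arrays with the knockout comparison, so their counts are not independent.

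The intervals bound these differences only for the spread between these samples, since the replicates are described as technical. Pcdh19 itself was not called in the main fit (-1.23 in knockout against wild type averaged over days, adjusted p = 0.0642). The shared spread takes in the mosaic arrays, whose Pcdh19 SD was 0.33 at day 0 and 0.79 at day 4. In the wild type and knockout groups it was 0.09 to 0.17. A lack of calls therefore does not show equal levels. Averaged over days, the 95% interval of the difference lay within 1.5-fold either way for 58 of 60 members in knockout against wild type, and for 59 in each mosaic comparison. It lay within 2-fold for all 60 in each. In knockout against wild type the largest averaged values were Sema3e at 0.33 (95% interval -0.06 to 0.73), Sema4d at -0.30 and Sema3g at -0.26. In mosaic against wild type they were Sema3e at 0.45 (0.06 to 0.85), Sema3b at -0.29 and Sema3d at 0.29, and in mosaic against knockout Sema3d at 0.39 (0.12 to 0.67), Plxna2 at -0.26 and Sema4d at 0.25.

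**Figure D3:**
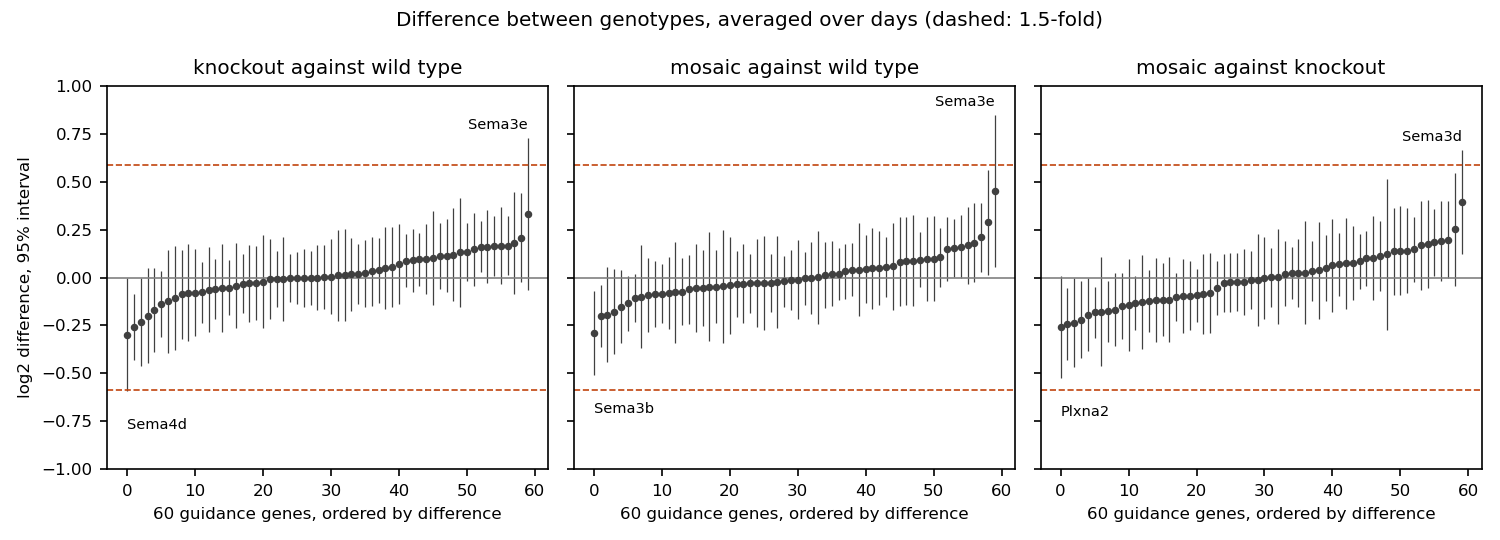
Log2 difference between genotypes, averaged over days, for the 60 guidance genes, ordered by size within each panel. Points are fitted differences with 95% intervals, and dashed lines mark 1.5-fold. The intervals of 58, 59 and 59 of the 60 genes lie between the dashed lines, and none reaches 2-fold.

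At day 0 the largest single value was Robo4 in mosaic against wild type cultures. Its signals were 4.45, 4.62 and 4.38 in wild type, 4.66, 4.51 and 4.51 in the knockout and 4.70, 4.99 and 5.27 in mosaic neurospheres. The mosaic arrays were the 3 highest, by a difference of 0.50 ± 0.13 from wild type (adjusted p = 0.999). In that comparison 6 of the 60 members had groups that did not overlap, and the share of all genes is not given here. At day 4 the Robo4 signals were 4.76, 4.76 and 4.82 in wild type, 4.58, 4.65 and 4.70 in the knockout and 4.91, 4.45 and 4.48 in mosaic cultures. The 3 knockout arrays lay below the 3 wild type arrays, and the mosaic arrays lay above or below both groups' ranges and within neither. In knockout against wild type at day 0 the largest was Sema3e at 0.43 ± 0.26.

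At day 4 the 2 class 3 semaphorins stood out among the mosaic values. Sema3e was 0.78 ± 0.26 above wild type (adjusted p = 0.2) and Sema3d 0.76 ± 0.18 above it (adjusted p = 0.129). Against knockout, Sema3d was 0.69 ± 0.18 higher (adjusted p = 0.762) and Sema3e 0.54 ± 0.26 higher (adjusted p = 0.797). For both genes the 3 mosaic arrays lay above all wild type and all knockout arrays of day 4. At day 4, 8 of the 60 members did not overlap between mosaic and wild type, and 11 between mosaic and knockout. The share of all genes so separated is not given here, so the separation cannot be read as particular to Sema3d and Sema3e. Mosaic replicate 3, which had the lowest Pcdh19 signal of the mosaic arrays at 5.52, was the highest for each. Without it, the difference from wild type was 0.52 for Sema3d (adjusted p = 0.358) and 0.56 for Sema3e (adjusted p = 0.505). Without mosaic replicate 1 at day 4, Sema3d was called at 0.87 (adjusted p = 0.0471), the only member call between genotypes in any fit with 1 array left out. How many of all genes were called in that fit is not given here, so the call cannot be read as particular to Sema3d.

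In knockout against wild type at day 4 the largest values were Epha1 at -0.47 ± 0.18 (adjusted p = 0.312) and Sema3g at -0.45 ± 0.12 (adjusted p = 0.211). Sema3g signals were 5.84, 5.57 and 5.71 in wild type and 5.47, 5.32 and 4.99 in knockout cultures, so the groups did not overlap. That was so for 10 of the 60 members in this comparison, and the share of all genes is not given here. Epha1 signals were 4.34, 4.72 and 4.61 in wild type and 4.39, 3.97 and 3.90 in knockout cultures, with 1 knockout array inside the wild type range.

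Whether differentiation itself differed between genotypes was tested as a difference of differences, and no member was called. In the main fit limma called 0 genes in these 3 comparisons as well. At an unadjusted p under 0.05 there were 3 members for knockout and wild type, 6 for mosaic and wild type and 6 for mosaic and knockout (background 9.51%, 12.4% and 4.29%). Sema3d had the largest value between mosaic and wild type, 0.94 ± 0.26 (95% interval 0.39 to 1.48, adjusted p = 0.275), and Robo4 followed with -0.67 ± 0.19 (adjusted p = 0.276). Between mosaic and knockout the largest was Sema3e at 0.84 ± 0.37 (adjusted p = 0.999). Between knockout and wild type it was Epha1 at -0.69 ± 0.25 (adjusted p = 0.45). These intervals are wider than those above. They lay within 2-fold for 59, 55 and 56 of the 60 members, and within 1.5-fold for 37, 33 and 32.

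**Figure D4:**
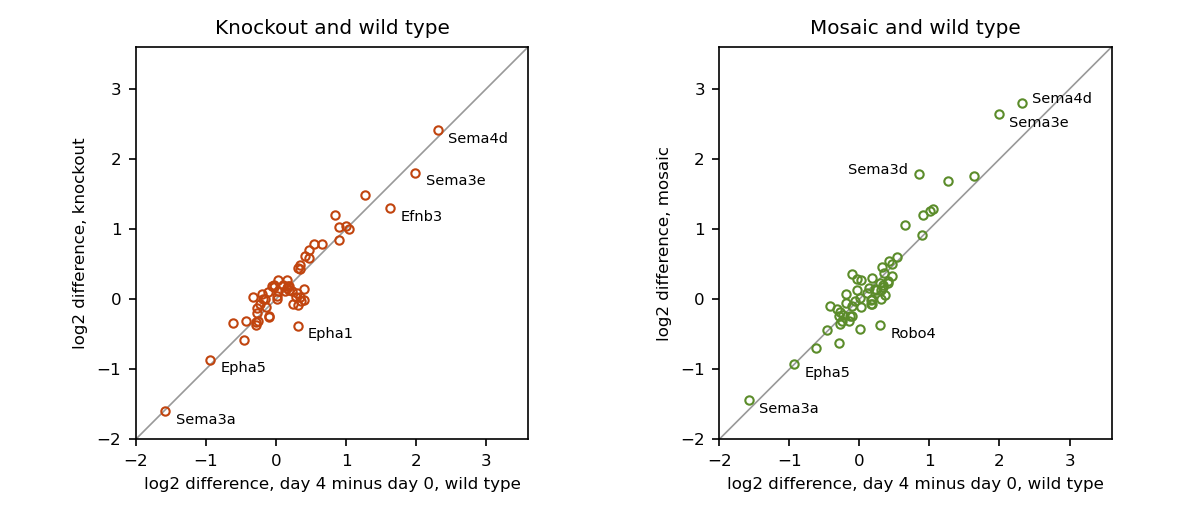
Log2 difference between day 4 and day 0 for the 60 guidance genes in knockout (left) and mosaic cultures (right), each plotted against the same difference in wild type cultures. The line marks equal change, and each axis rests on its own 6 arrays. Sema3d lies furthest above the line in the mosaic panel, at 0.85 in wild type and 1.79 in mosaic cultures.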

How the data were processed

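Total RNA of 18 neurosphere samples was measured on Affymetrix mouse gene arrays with a biotin label, per the labels. The authors deposited normalized values on a log2 scale for 41345 probe sets; the base was taken to be 2 from their range of 0.722 to 13.97, and no label or header names the background correction or the normalization. Gene names came from the platform annotation, in which 23521 probe sets had 1 symbol and were used, 1814 had several and 16010 had none listed. Of the 60 members, 57 had 1 such probe set and 3 had 2, and all 60 matched RefSeq (GRCm38.p6) by Entrez identifier.

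Genes above the 25th percentile of their array on at least 3 arrays were tested. A model of 6 group means was fitted with limma 3.58.1 in R 4.3.3 (12 residual and 4.36 prior degrees of freedom), with 16 contrasts, and p-values were adjusted by the Benjamini-Hochberg method over 19016 genes. The pipeline was tested on simulated data. Within-group correlations of arrays were 0.98 to 0.99, and no pair of arrays was identical. The number of arrays limits the precision. No batch is named in the labels.

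The members, the pathway lists and the marker lists were chosen with earlier results of these data known. Any member could be named. Array values were given for the 12 with the largest averaged change, up to 6 members were named per genotype contrast, and up to 4 genes per direction from each pathway list. Array values of Robo4, Sema3g, Epha1 and Epha6 were added after their values were seen. Alternatives covered normalization, the low-value filter, the choice of probe set, the variance model, the samples fitted, a replicate block, a minimum change of 1.5-fold and leaving out each array.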

Additional observations from a re-analysis of the deposited data

How the results depend on the processing

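No called member reversed its direction over differentiation under any alternative. Under a test against a minimum change of 1.5-fold, the members called numbered 5 (wild type), 6 (knockout), 9 (mosaic) and 11 (averaged), since that test asks for more than a difference from 0. With 1 array left out, the counts ran from 17 to 25, 19 to 25, 18 to 26 and 33 to 36, and those between genotypes stayed at 0 except mosaic against wild type at day 4, which ran from 0 to 1. The arrays of the compared groups fitted alone gave 26, 18 and 19. The calls among all genes were then 6107, 4170 and 3763, beside 6386, 5211 and 4989 in the main fit. Averaging the probe sets of each gene turned the uncalled difference of Plxnb1 between mosaic and wild type at day 0 from -0.21 to 0.0038, as its second probe set then enters the value. The replicate numbers did not pair the samples: over 45 pairs of arrays with the same number the correlation of deviations was -0.15 to 0.17 (median 0.026), and 4 exceeded 0.1. A fit with the replicate block called 25, 23, 26 and 35 members in the same order, and 6328, 5208, 4984 and 8649 of all genes. That fit lost the calls of Sema3b, Sema4b and Robo4 in wild type, knockout and mosaic cultures respectively. The files give no detection call, so it is unknown which dim values stood above background. Examples are those of Epha6, of Sema3a at day 4 and of Sema3e at day 0.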
